A study of Homo sapiens with 24 samples.

Results

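A pair of siRNAs against different exons of the same long noncoding RNA gene were compared directly: HB2 cells that received the exon 1 siRNA were set against HB2 cells that received the exon 7 siRNA. All arrays whose labels name either siRNA were taken, which gave 12 of the 24 arrays of the study, 6 per siRNA, and each exon 1 array was paired with the exon 7 array of the same experiment (experiments 1, 3, 5, 7, 9 and 11 by the sample titles). HB2 is a human mammary epithelial cell line, grown in medium with serum, insulin and hydrocortisone. Cells were transfected with DharmaFECT 3 and 50 nM of a Silencer Select siRNA against exon 1 or exon 7 of GNG12-AS1, and RNA was taken after 48 h. The remaining arrays of the study held cells given an exon 9 siRNA or a control siRNA at the same dose and time; they took part in the normalization and in alternative fits on all 24 arrays, but not in the paired comparison, and are otherwise given as levels. All groups were thus transfected, and none was left without an siRNA. By its title, the study asked whether RNA interference can separate the function of a noncoding transcript from that of its transcription.

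GNG12-AS1 lies antisense to GNG12 on chromosome 1 and overlaps the imprinted gene DIRAS3. An siRNA is loaded into an Argonaute protein and guides the cleavage of transcripts that match it, and through a short seed at its 5′ end it can also lower transcripts that match only in part. Different siRNAs against a single transcript share the intended target but not the seed. A direct contrast of the siRNAs therefore shows in which genes cells given one differed from cells given the other, and it cannot tell which of them moved a gene. The siRNA sequences were not used here, so no seed was compared.

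Before normalization the medians of the 12 arrays ranged from 7.48 to 7.68 on the log2 scale, and 34.2% to 39.5% of probes lay above background. EPCAM and CDH1 and the keratins KRT5, KRT7, KRT8, KRT18 and KRT19 were above background on all 6 arrays of each siRNA, as in mammary epithelial cells. The basal keratin KRT14 was above background on 0 arrays of either siRNA. KRT17 had 0 probes with its name. By limma none of the measured defining markers passed the test between the siRNAs; their differences ranged from -0.12 ± 0.06 for EPCAM to 0.22 ± 0.08 for CDH1 (log2, exon 1 minus exon 7, ± standard error). The deposited table held the arrays in a first and a last set of 12 columns. Both arrays of experiments 1 and 3 stood in the same set, while those of experiments 5, 7, 9 and 11 stood in different sets.

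Of 10057 genes measured, 1298 (12.9%) differed between the siRNAs by limma's paired test at an adjusted p below 0.05 (n = 6 pairs; 2966 at an unadjusted p below 0.05). Of these 689 (6.85%) were higher and 609 (6.06%) lower under the exon 1 siRNA, and the median difference over all genes was 0.01. The differences were mostly moderate: 161 genes were at least 1.5-fold higher and 124 at least 1.5-fold lower, and 26 (0.259% of all genes) and 13 (0.129%) at least 2-fold. Among the called genes 606 of the higher and 555 of the lower ones had 1 sign in all 6 experiments, against 10.2% and 9.61% of all genes with every difference above or below 0. The 6 arrays of each siRNA did not overlap at all for 234 of the higher and 259 of the lower genes, while over all genes tested 2.59% and 2.88% did not overlap in these directions. Median scaling in place of quantile normalization gave 833 higher and 288 lower, so the share of higher genes was 74.3% there, against 53.1% here. Left out in turn, the experiments gave 275 higher and 251 lower genes without experiment 1, 298 and 242 without experiment 3, 386 and 377 without experiment 5, 812 and 596 without experiment 7, 446 and 466 without experiment 9, and 483 and 408 without experiment 11. With the experiment left out of the model 470 were higher and 436 lower. Within the first 12 columns alone 105 were higher and 93 lower, and within the last 12 columns 1 and 0, with no pairing in either.

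**Figure D1:**
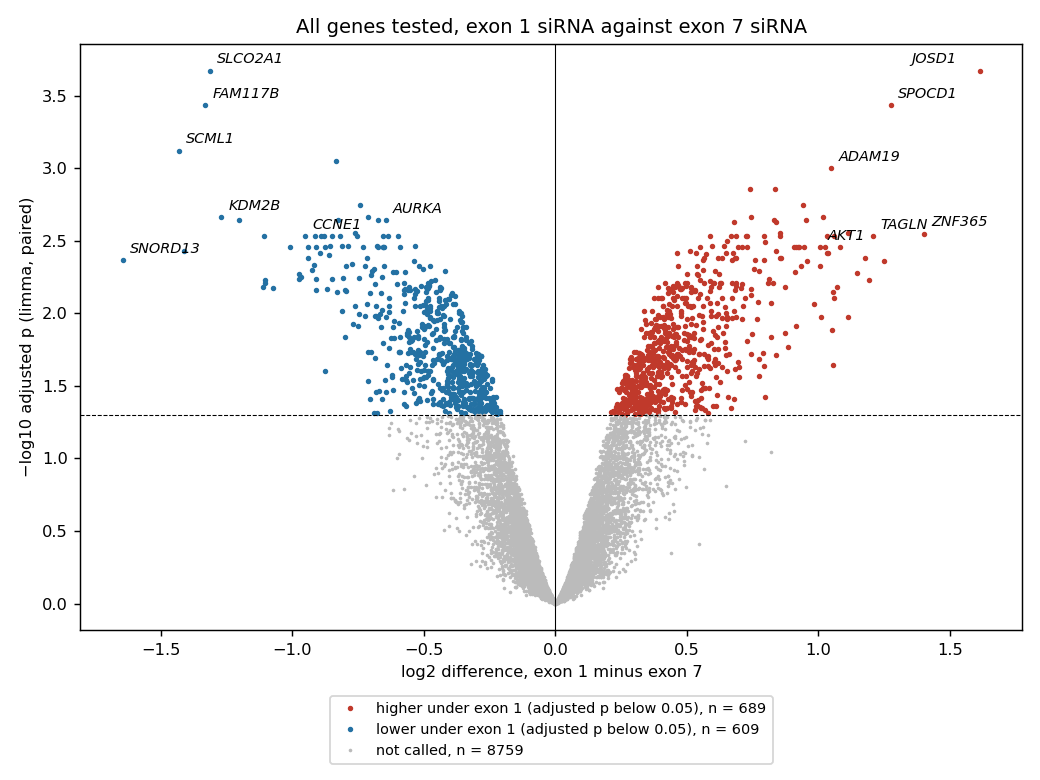
Each point is 1 of the 10057 genes tested, with the log2 difference (exon 1 minus exon 7) on the horizontal axis and −log10 of limma's adjusted p on the vertical axis; the dashed line marks 0.05. JOSD1 and SLCO2A1 stand at the top on opposite sides, and the 689 higher and 609 lower genes are coloured red and blue.

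The target itself could not be read, since 0 probes carried the name GNG12-AS1. DIRAS3, a RAS-family gene that is imprinted, had 2 probes, of which 1 was above background on 0 arrays and the other on 1 array of each siRNA. GNG12, the G-protein gamma subunit on the opposite strand, had lowest, median and highest levels of 7.83, 8.36 and 8.72 under exon 1, against 7.84, 8.05 and 8.12 under exon 7. These ranges overlapped and the difference of 0.32 ± 0.12 did not pass (adjusted p = 0.117). In 2 of 22 alternative fits GNG12 did pass (lowest adjusted p = 0.0216). Of 11 measured genes of the locus and its neighbourhood, 0 were higher and 1 was lower under exon 1 (9.09%, against 6.06% of all genes). Their median was 0.14, against 0.01 over all genes. The lower one was ANKRD13C, an ankyrin-repeat protein, at -0.48 ± 0.08 (adjusted p = 0.00956). Higher members numbered 2 under median scaling, 2 without experiment 7 and 4 on all 24 arrays with the experiment as a block. WLS, the sorting receptor for secreted Wnt ligands, differed by 0.39 ± 0.11 (adjusted p = 0.0545) and LRRC40 by 0.43 ± 0.15 (adjusted p = 0.0876). WLS passed in 12 of 22 alternative fits, among them the fit that also blocked on column set (adjusted p = 0.0246) and the fit with no pairing (adjusted p = 0.0329). LRRC40 passed in 5 of 22. For WLS the probes did not all give the same difference. The 4 other probes of WLS gave -0.01 to 0.56.

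JOSD1, a deubiquitinase, showed the largest difference upward. Its arrays lay at 9.53, 9.66 and 9.74 under exon 1 (lowest, median and highest) and at 7.75, 8.12 and 8.28 under exon 7, a 3.06-fold difference (1.61 ± 0.09, adjusted p = 0.000212). The groups did not overlap, and it was the exon 7 arrays that stood apart, since exon 9 and control arrays averaged 9.68 and 9.62. SELENOT, a selenoprotein of the endoplasmic reticulum, had the same arrangement, at 9.27, 9.45 and 9.70 under exon 1 against 7.83, 8.40 and 8.81 under exon 7 (1.15 ± 0.16, adjusted p = 0.00530). Its control arrays averaged 9.28. ATOSB (1.11 ± 0.12) and MOB3B (1.08 ± 0.13; above background on 4 exon 7 arrays) also had control means nearer the exon 1 mean.

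For the other 11 of the 15 largest rises the control mean was nearer the exon 7 mean. TAGLN, an actin-binding protein of contractile cells, had 8.20, 8.87 and 9.27 under exon 1 and 7.26, 7.53 and 8.31 under exon 7 (1.21 ± 0.14, 2.31-fold, adjusted p = 0.00292). The groups overlapped on 1 value, since the highest exon 7 array lay just above the lowest exon 1 array. SGK1, a kinase related to AKT, had 10.55, 11.36 and 11.61 under exon 1 against 9.68, 10.12 and 10.30 under exon 7 (1.18 ± 0.16, adjusted p = 0.00415), with no overlap. Its 2 other probes gave 1.20 and 1.27. SGK1 averaged 10.89 on exon 9 arrays and 9.93 on control arrays. NRG1, a ligand of the ERBB receptors, had 7.25, 7.43 and 7.70 under exon 1 and 5.99, 6.39 and 6.82 under exon 7 (1.07 ± 0.16, adjusted p = 0.00659). Its probe was above background on all 6 exon 1 arrays but on only 3 exon 7 arrays.

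PMEPA1, a TGF-beta target that restrains SMAD signalling, had 10.35, 10.77 and 11.33 under exon 1 and 9.49, 9.62 and 10.53 under exon 7 (1.06 ± 0.12, adjusted p = 0.00292), with 1.10 and 1.11 on its other probes. SPOCD1 was above background on 6 exon 1 and 0 exon 7 arrays and was at least 1.32-fold higher (measured means 6.82 under exon 1 and 5.55 under exon 7). It passed the filter through its exon 1 arrays alone and so had to differ, and its place among the largest rises rests on levels below background. The homeobox gene IRX3 (1.06 ± 0.17) and ZNF365, a protein of centrosomes and genome stability (1.40 ± 0.15), did not overlap between the siRNAs. KRT6C, a keratin of stressed and wounded epithelium, differed by 1.25 ± 0.17; the keratin 6 genes are near-identical, so the probe may read other copies. SMAP1, a regulator of ARF proteins, differed by 1.19 ± 0.17 on 1 probe (above background on 4 exon 7 arrays) but by 0.03 on its other probe. PRUNE2 (1.11 ± 0.20) was above background on 5 exon 1 arrays and 1 exon 7 array and had an adjusted p of 0.0603 with no pairing. FLRT3, a membrane protein with fibronectin and leucine-rich repeats, differed by 1.06 ± 0.23 (adjusted p = 0.0225) but lost its call without experiment 1, 5 or 9 (adjusted p up to 0.0684).

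The largest fall was in SNORD13, a small nucleolar RNA that takes part in ribosomal RNA processing. It had 8.18, 8.77 and 9.16 under exon 1, against 9.78, 10.42 and 10.67 under exon 7 (-1.64 ± 0.22, 3.13-fold lower, adjusted p = 0.00431). Every exon 1 array lay below every exon 7 array, with exon 9 and control means of 9.61 and 9.58 between them. SLCO2A1, a prostaglandin transporter, had 8.64, 9.01 and 9.54 under exon 1 and 10.02, 10.28 and 10.79 under exon 7 (-1.31 ± 0.07, adjusted p = 0.000212). Exon 9 and control arrays averaged 10.29 and 10.18, so here the exon 1 arrays stood apart. KDM2B, a histone demethylase that recruits Polycomb complexes to CpG islands, had 8.61, 9.21 and 9.42 under exon 1 against 10.16, 10.41 and 10.52 under exon 7 (-1.27 ± 0.12, adjusted p = 0.00217). These groups did not overlap either.

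SCML1, a Polycomb-related protein, had 6.21, 6.43 and 7.18 under exon 1 and 7.58, 8.07 and 8.22 under exon 7 (-1.43 ± 0.11, adjusted p = 0.000754), although only 3 exon 1 arrays were above background and its other probe gave -0.19. MED11, a subunit of the Mediator complex, differed by -1.41 ± 0.18 (adjusted p = 0.00370). FAM117B differed by -1.33 ± 0.09 on 1 probe and -0.74 on the other. LIMS1, the adaptor PINCH that joins integrin-linked kinase to the cytoskeleton, had 8.60, 9.13 and 9.48 under exon 1 and 9.81, 10.24 and 10.35 under exon 7 (-1.11 ± 0.17, adjusted p = 0.00659; -0.81 on its other probe). WWP1, a ubiquitin ligase of the NEDD4 family, fell to 8.66, 9.12 and 9.47 under exon 1, against 10.01, 10.16 and 10.42 under exon 7 (-1.11 ± 0.16). YBX3, a cold-shock-domain protein that binds RNA, was among the brightest, at 12.16, 12.75 and 13.06 under exon 1 against 13.54, 13.69 and 13.91 under exon 7 (-1.01 ± 0.12). The remaining members were CALB2 (calretinin; -1.21 ± 0.12), PAK1IP1 (-1.11 ± 0.12), the semaphorin receptor PLXNA1 (-1.10 ± 0.16), SCOC (-1.08 ± 0.17), the coenzyme Q methyltransferase COQ3 (-0.98 ± 0.14) and ARFGAP2 (-0.97 ± 0.14). All 15 falls had groups without overlap and control means nearer the exon 7 mean.

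**Figure D2:**
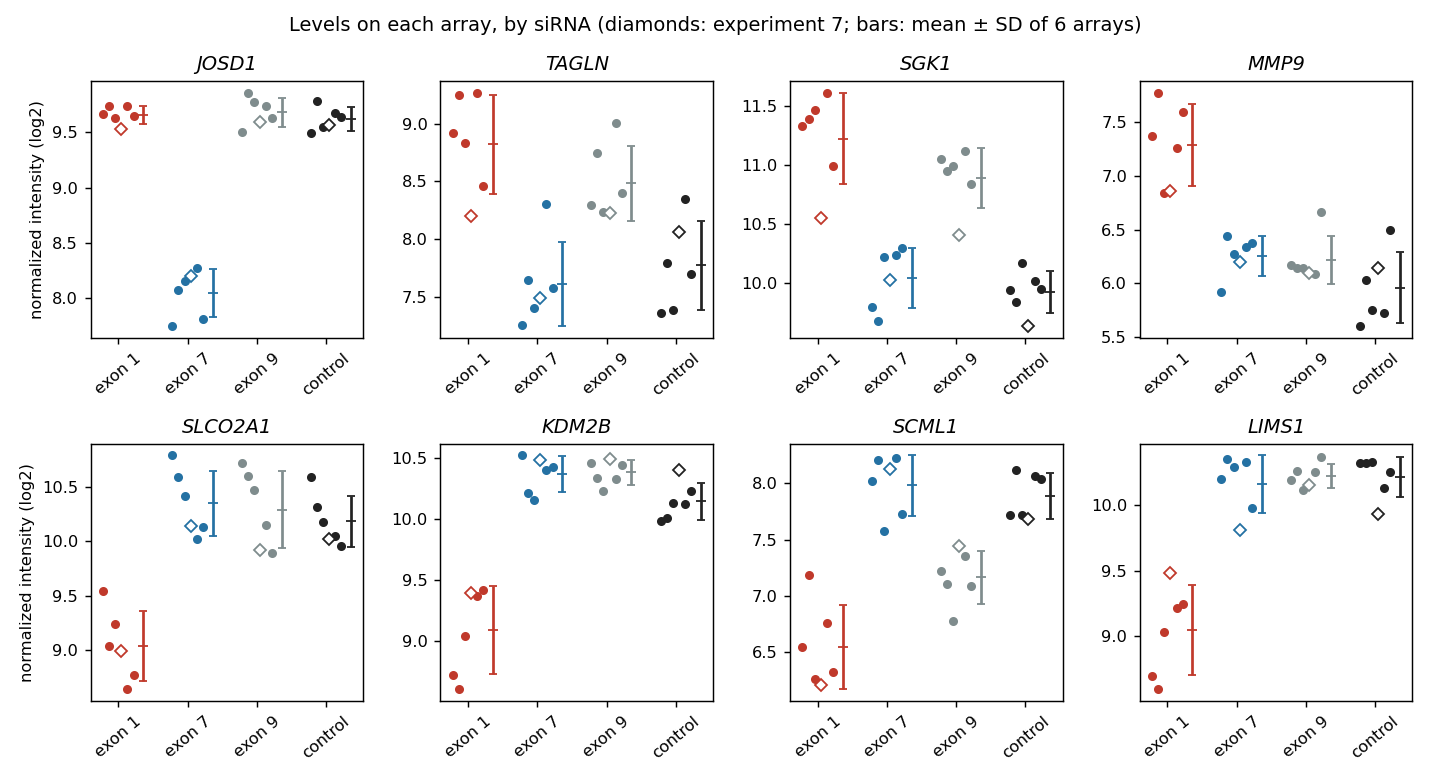
Normalized log2 intensity of 8 genes on each array, by siRNA (exon 1, exon 7, exon 9, control); bars give the mean ± SD of 6 arrays, and diamonds mark experiment 7. For JOSD1 the exon 7 arrays stand below all others, while for SLCO2A1, KDM2B and LIMS1 the exon 1 arrays do.

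Of the 689 genes higher under exon 1, 484 had a control mean nearer the exon 7 mean, as did 451 of the 609 lower genes. Of the 30 genes with the largest differences 26 did so, and JOSD1, SELENOT, ATOSB and MOB3B did not. These positions describe the group means and were not tested, and the same share over all genes was not counted. The 26 include SPOCD1, which was above background on 0 exon 7 and 0 control arrays. The 6 experiments differed in size but seldom in sign. The median difference of the 15 largest rises was 1.52 in experiment 1, 1.59 in experiment 3, 1.24 in experiment 5, 0.59 in experiment 7, 1.02 in experiment 9 and 1.07 in experiment 11. For the 15 largest falls these medians were, in the same order of experiments, -1.48, -1.60, -1.12, -0.69, -1.06 and -1.07. Experiment 7 gave the smallest difference for 21 of the 30 genes and experiment 3 the largest for 18. In experiment 7 JOSD1 still differed by 1.32 and SLCO2A1 by -1.15, whereas SMAP1 and PRUNE2 each differed by 0.18, IRX3 by 0.25 and LIMS1 by -0.32. SCML1 went the other way, with its largest difference in experiment 7 (-1.91). These genes were chosen by all 6 experiments together, so the medians, which include SPOCD1, are descriptions.

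**Figure D3:**
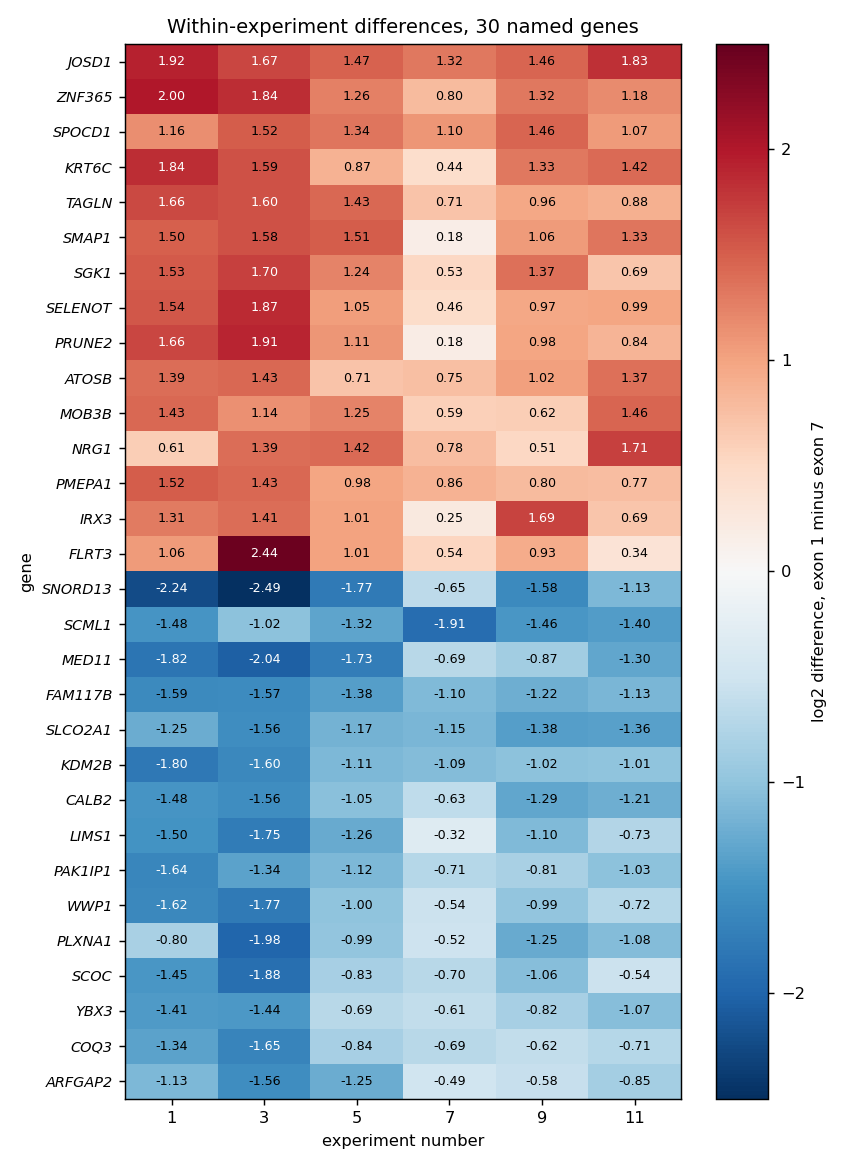
Log2 difference (exon 1 minus exon 7) in each of the 6 experiments (columns, by experiment number) for the 15 largest rises and 15 largest falls (rows), with the value in each cell. Experiment 7 is the palest column for most genes, and experiments 1 and 3 are the darkest. For SPOCD1 the cells hold measured differences against exon 7 arrays that were not above background.

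Mesenchymal markers and the transcription factors of epithelial-mesenchymal transition, the process by which epithelial cells take on migratory features, were higher under the exon 1 siRNA. Of 14 measured, 8 were higher and 0 lower (57.1%, against 6.85% of all genes), with a median of 0.43 against 0.01. Between 5 and 11 were higher when an experiment was left out: 5 without experiment 1, 3, 5 or 9, 7 without experiment 11 and 11 without experiment 7. In bulk RNA, a change in the number of cells of a kind and a change in the RNA of each cell cannot be told apart. SNAI2, a repressor of epithelial genes, had 10.17, 10.40 and 10.77 under exon 1 and 9.51, 9.70 and 9.89 under exon 7 (0.73 ± 0.09, adjusted p = 0.00348; 0.64 on its other probe). TWIST1, a helix-loop-helix factor, had 10.39, 10.63 and 11.03 under exon 1 against 9.73, 9.98 and 10.29 under exon 7 (0.61 ± 0.11, adjusted p = 0.0105). CDH2, the cadherin of mesenchymal and neural cells, had 11.49, 11.76 and 11.90 under exon 1 against 10.89, 11.04 and 11.32 under exon 7 (0.69 ± 0.08, adjusted p = 0.00292). In all 3 the groups did not overlap. LOX, which cross-links collagen and elastin, differed by 0.71 ± 0.12 and TAGLN as given above. SPARC (0.58 ± 0.12), ITGA5 (0.38 ± 0.09) and TPM1 (0.27 ± 0.08) passed but lost their calls without experiment 1, 3, 5 or 9 (TPM1 also without 11), with adjusted p up to 0.0674, 0.0979 and 0.139. With no pairing SPARC and ITGA5 had adjusted p of 0.0618 and 0.150, and TPM1 had 0.0714 under median scaling and 0.0670 over its probes. ITGA5 and TPM1 were chosen after their values were seen. VIM, the mesenchymal intermediate filament, differed by -0.11 and S100A4 by -0.25, and neither passed.

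Epithelial genes did not move as a group in the opposite direction. Of 27 measured junction genes 3 were higher and 2 lower (11.1% and 7.41%, against 6.85% and 6.06% of all genes), with a median of 0.13. E-cadherin, CDH1, had 11.99, 12.27 and 12.62 under exon 1 and 11.93, 12.04 and 12.30 under exon 7 (0.22 ± 0.08, adjusted p = 0.120). The desmosomal plakophilin PKP2 was lower (-0.53 ± 0.08, adjusted p = 0.00681), as was the tight-junction protein CLDN3 (-0.52 ± 0.13, adjusted p = 0.0381). The tight-junction protein CGN (0.33 ± 0.07) and the epithelial transcription factor GRHL2 (0.54 ± 0.14; above background on 5 exon 1 and 4 exon 7 arrays) were higher. The calls of CLDN3, CGN and GRHL2 were lost with no pairing (adjusted p = 0.0581, 0.0910 and 0.122) and without experiment 1, 3 or 9, among others (adjusted p up to 0.0931, 0.0690 and 0.117). Without experiment 1, 3, 5 or 9, 0 of the junction genes were higher, and without experiment 7, 5 were. Among 11 keratins 1 was higher (KRT6C) and 1 lower, KRT13 of stratified epithelia (-0.54 ± 0.14, adjusted p = 0.0351; 0.239 with no pairing, and up to 0.109 with 1 experiment left out). Of 14 luminal markers 0 were higher and 1 lower, the protease inhibitor SLPI (-0.39 ± 0.08; adjusted p = 0.251 with no pairing, up to 0.0716 without experiment 1, 3 or 5, and 0.0803 under median scaling).

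Basal markers of the mammary gland, the genes of its contractile outer layer, were mostly higher under exon 1: 7 of 11 measured (63.6%, against 6.85% of all genes), with 1 lower (9.09%, against 6.06%) and a median of 0.45 (4 to 8 higher with an experiment left out, 4 without experiment 1 or 3). OXTR, the oxytocin receptor, had 8.25, 8.37 and 8.99 under exon 1 and 7.30, 7.91 and 8.19 under exon 7 (0.67 ± 0.12, adjusted p = 0.0108). The laminin chain LAMB3 (0.45 ± 0.08) and the surface glycoprotein THY1 (0.52 ± 0.08) were higher, as was the caveolin CAV2 (0.55 ± 0.11; adjusted p up to 0.0550 without experiment 1 or 3). CAV1 differed by 0.30 ± 0.08 (adjusted p = 0.0453, lost without any experiment other than 7, up to 0.129, and 0.0639 under median scaling). The exception was EGFR, the receptor of epidermal growth factor, with 10.12, 10.23 and 10.31 under exon 1 against 10.47, 10.78 and 11.09 under exon 7 (-0.56 ± 0.09, adjusted p = 0.00659; -0.17 on its other probe). The exon 1 arrays of EGFR were all below the exon 7 arrays and near the control mean of 10.18. KRT5, the defining basal keratin, differed by -0.05 ± 0.06. SNAI2 and MYLK are on this list as well as on others.

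**Figure D4:**
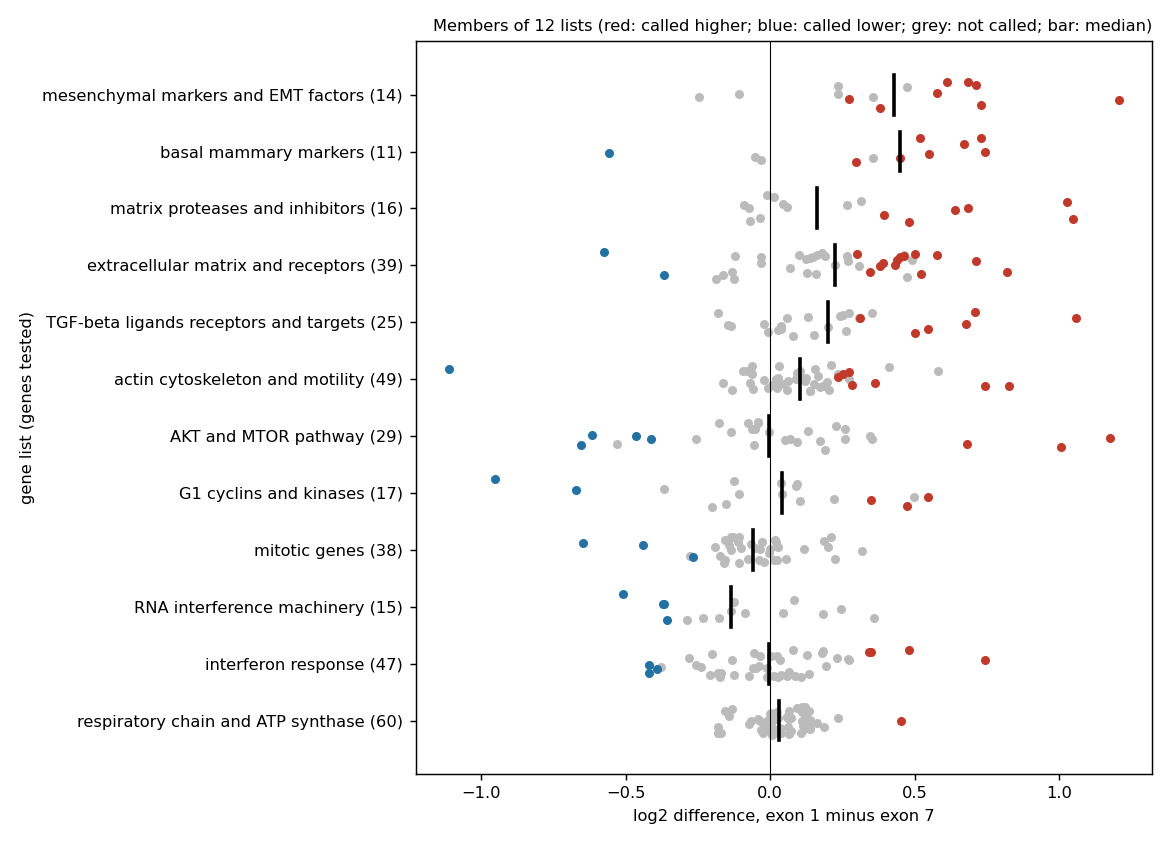
Log2 differences (exon 1 minus exon 7) of the measured members of 12 gene lists, 1 point per gene and 1 row per list, with the list median as a bar; red and blue points passed limma's paired test. The bars of the mesenchymal list (0.43) and the basal list (0.45) lie farthest to the right, and the bar of the RNA interference list (-0.14) farthest to the left.

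Genes of the extracellular matrix and its receptors followed the same direction. Of 39 measured, 13 were higher (33.3%, against 6.85% of all genes) and 2 lower (5.13%, against 6.06%), with a median of 0.23. The count of higher members was 7 without experiment 1, 3 or 5 and 14 without experiment 7, and 6 with no pairing. TGFBI, a secreted matrix protein induced by TGF-beta, had 12.65, 12.93 and 13.23 under exon 1 and 12.24, 12.40 and 12.68 under exon 7 (0.50 ± 0.07, adjusted p = 0.00538), overlapping only at the edge. FBN2, a microfibril protein, had 9.00, 9.70 and 10.86 under exon 1 against 8.55, 9.05 and 9.48 under exon 7 (0.82 ± 0.16, adjusted p = 0.0144; 0.0507 without experiment 3 and 0.0922 with no pairing). CD44, the hyaluronan receptor, was higher by 0.44 ± 0.09 with no overlap (0.49 on its other probe). COL7A1, the collagen of anchoring fibrils, was higher by 0.46 ± 0.07 within experiments, but its levels spread widely between experiments (9.28 to 10.95 under exon 1, 8.90 to 10.33 under exon 7) and its adjusted p was 0.308 with no pairing. The integrin subunits were split: ITGA5, of the fibronectin receptor, was higher, while ITGA2, of the collagen receptor, had 8.26, 8.76 and 9.31 under exon 1 against 9.18, 9.29 and 9.63 under exon 7 (-0.58 ± 0.09, adjusted p = 0.00695). ITGA3, of the laminin receptor, was lower by -0.37 ± 0.08, a call lost without experiment 1, 3 or 11 (adjusted p up to 0.0707) and under median scaling (0.0706). CD44 and ITGA3 were chosen after their values were seen. ITGA2 differed by -0.24 within the first 12 columns and -0.91 within the last 12.

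Of 16 measured matrix proteases and inhibitors 6 were higher (37.5%, against 6.85% of all genes) and 0 lower (against 6.06%). The median was 0.16, against 0.01 over all genes, and 5 to 7 were higher with an experiment left out. ADAM19, a membrane metalloproteinase that sheds growth factors such as neuregulin, had 11.17, 11.73 and 11.82 under exon 1 and 10.13, 10.57 and 11.07 under exon 7 (1.05 ± 0.08, 2.07-fold, adjusted p = 0.000990). No exon 7 array reached an exon 1 array, and exon 9 and control arrays averaged 10.74 and 10.69. MMP9, a gelatinase, had 6.84, 7.32 and 7.77 under exon 1 against 5.92, 6.31 and 6.44 under exon 7 (1.03 ± 0.13, adjusted p = 0.00348). For MMP9 6 exon 1 arrays but only 1 exon 7 array were above background. Its exon 1 arrays alone met the detection filter, so its call, 1 of the 6 here, is not independent of that filter. SERPINB5, the serpin maspin, was higher by 0.64 ± 0.08 without overlap. On the plasminogen side PLAT, the tissue activator, differed by 0.69 ± 0.10 and PLAUR, the receptor of urokinase, by 0.48 ± 0.08 (0.17 and 0.24 on its other probes; adjusted p = 0.0556 with no pairing). ADAM9 differed by 0.39 ± 0.09 (adjusted p = 0.0232; up to 0.0774 without experiment 1, 3 or 5).

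Among 25 ligands, receptors and targets of TGF-beta, a secreted factor that acts through SMAD proteins, 6 were higher and 0 lower. The shares were 24% and 0%, against 6.85% and 6.06% of all genes. The median was 0.20, and 5 or 6 were higher with an experiment left out and 4 with no pairing. Within the first 12 columns the list median was 0.29 and within the last 12 it was -0.02. PMEPA1 led, with the values given above. FST, which binds activin, had 9.05, 9.38 and 9.64 under exon 1 and 8.17, 8.71 and 9.20 under exon 7 (0.71 ± 0.09, adjusted p = 0.00348; 0.77 on its other probe). LTBP2, a latent TGF-beta binding protein, was higher by 0.55 ± 0.10. BAMBI, a decoy receptor, differed by 0.68 ± 0.07 within experiments (adjusted p = 0.00233), but it was above background on 6 exon 1 and 2 exon 7 arrays and its adjusted p was 0.169 with no pairing. ID3, a target of BMP signalling, differed by 0.31 ± 0.07 (adjusted p = 0.0225; up to 0.0746 without experiment 1, 5, 9 or 11, and 0.0530 with no pairing). The receptors and SMAD genes that were measured did not pass.

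Of 49 actin cytoskeleton and motility genes 7 were higher (14.3%, against 6.85% of all genes). LIMS1 alone was lower (2.04%, against 6.06%). The median was 0.10, and 1 member was higher without experiment 1, 3 or 5. MYL9, the light chain of contractile myosin, had 7.30, 7.83 and 8.07 under exon 1 and 6.75, 6.93 and 7.20 under exon 7 (0.83 ± 0.12, adjusted p = 0.00620; 1.56 on its other probe). These groups did not overlap. MYLK, the kinase that phosphorylates it, was higher in 5 of 6 experiments and differed by 0.74 ± 0.16 (adjusted p = 0.0190; 0.0585 with no pairing, up to 0.0592 without experiment 1, 3 or 5). VCL, vinculin of focal adhesions, differed by 0.36 ± 0.08, CAPN2, a calpain, by 0.28 ± 0.06, ILK, integrin-linked kinase, by 0.24 ± 0.07 and the GTPase RHOC by 0.25 ± 0.07. The calls of VCL and CAPN2 were lost without experiment 1, 3 or 5 (adjusted p up to 0.0707 and 0.0725), and those of ILK and RHOC with any experiment left out (adjusted p up to 0.145 and 0.133). With no pairing CAPN2 and RHOC had adjusted p of 0.0845 and 0.0707. Under median scaling ILK and RHOC had 0.0824 and 0.0669, and over their probes 0.166 and 0.0551. RSU1, which binds the LIMS1 protein, was higher by 0.39 ± 0.10 (adjusted p = 0.0341; up to 0.0962 without any experiment other than 5), while LIMS1 fell. RSU1 and ILK were chosen after their values were seen.

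Several of these contractile genes are textbook targets of serum response factor, which binds the CArG box. SRF itself had 10.69, 11.08 and 11.43 under exon 1 and 10.40, 10.64 and 10.94 under exon 7 (0.39 ± 0.09, adjusted p = 0.0270; 0.0880 with no pairing, up to 0.0854 without experiment 1, 3, 5 or 9). Promoters of 8159 of the 10057 genes were found in RefSeq (GRCh38.p14), and the 250 bases before each start were searched on both strands. Only 1 start was used per gene symbol. Whether the start used for MYLK belongs to the transcript of the full kinase was not examined. A CArG box stood in 13 of 553 promoters of genes higher under exon 1 (2.35%), in 4 of 475 of lower genes (0.842%) and in 80 of all 8159 (0.981%). Of the called genes with a promoter, it stood in 2 of 6 on the actin list and 0 of 5 on the mesenchymal list, in 1 of 11 of the 15 largest rises (PRUNE2) and in 1 of 10 of the 15 largest falls (YBX3). The AP-1 type motif TGANTCA stood in 4.52%, 2.74% and 3.71% of these sets, TATAAA in 6.51%, 5.05% and 5.18%, and CCAAT in 32.9%, 30.1% and 35.8%. The 13 included SRF, FHL2, MYLK, CAPN2, LEF1, RSU1 and PRUNE2, with differences from 0.24 to 1.11. They did not include TAGLN, MYL9, VCL or TPM1. The promoter of VCL was found and had no match in the bases searched. TAGLN, MYL9 and TPM1 had no match or no promoter found. FHL2, a LIM-domain cofactor of serum response factor, was higher by 0.24 ± 0.06 (adjusted p = 0.0429; 0.255 with no pairing, 0.0884 under median scaling, up to 0.124 without any experiment other than 7). Below are the stretches around the box of the factor, its cofactor and 2 genes of the actin list, with the box in capitals, 5′ to 3′ on the gene's strand. SRF lies at chr6:43171199-43171268 (+), FHL2 at chr2:105438565-105438654 (−), MYLK at chr3:123620593-123620682 (−) and CAPN2 at chr1:223701459-223701548 (+). SRF and FHL2 were chosen after their values were seen. A match of letters is a description and not a site.
SRF: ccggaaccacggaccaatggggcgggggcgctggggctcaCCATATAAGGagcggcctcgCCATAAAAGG
FHL2: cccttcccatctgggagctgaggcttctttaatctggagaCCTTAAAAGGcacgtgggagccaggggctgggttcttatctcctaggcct
MYLK: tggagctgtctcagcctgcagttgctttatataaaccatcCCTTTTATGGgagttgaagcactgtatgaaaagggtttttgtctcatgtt
CAPN2: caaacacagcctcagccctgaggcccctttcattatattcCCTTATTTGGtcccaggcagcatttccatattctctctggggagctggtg
SRF holds a pair of boxes in this stretch, the last of them directly before the annotated start, and each other gene holds a single one.

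Of 29 genes of the AKT and MTOR pathway, which couples growth factors to growth and survival, 3 were higher and 4 lower, with a median near 0. The shares were 10.3% and 13.8%, against 6.85% and 6.06% of all genes. AKT1, the central kinase, had 11.36, 11.51 and 11.59 under exon 1 and 9.90, 10.42 and 11.02 under exon 7 (1.01 ± 0.13, 2.01-fold, adjusted p = 0.00348; 0.99 on its other probe). All exon 1 arrays lay above all exon 7 arrays, and the control mean of 11.47 was at the exon 1 level. PIK3R1, the regulatory subunit of PI3 kinase, was higher by 0.68 ± 0.11, while PIK3CB, a catalytic subunit, was lower by -0.66 ± 0.13 (adjusted p = 0.0160; 0.0527 without experiment 1). MLST8, a subunit of the MTOR complexes, had 8.74, 9.36 and 9.75 under exon 1 against 9.67, 9.93 and 10.09 under exon 7 (-0.62 ± 0.11, adjusted p = 0.0124). GSK3B, a kinase that AKT inhibits, differed by -0.46 ± 0.11 and the lipid phosphatase INPP4B by -0.41 ± 0.08. Both lost their calls without experiment 1 or 3 (GSK3B also without 11; adjusted p up to 0.0895 and 0.0546), and INPP4B under median scaling (0.0582). GSK3B was chosen after its values were seen. Without experiment 1 only 1 member was lower and without experiment 3 only 2.

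SGK1 also belongs to the glucocorticoid targets, and the medium held hydrocortisone in all groups. Of 19 measured targets 4 were higher (21.1%, against 6.85% of all genes) and 1 lower (5.26%, against 6.06%), with a median of 0.08. TSC22D3, a leucine-zipper protein induced by glucocorticoids, had 9.88, 10.05 and 10.11 under exon 1 and 9.45, 9.62 and 9.86 under exon 7 (0.40 ± 0.07, adjusted p = 0.00778; 0.51 on its other probe). MAOA, monoamine oxidase A, was higher by 0.52 ± 0.10, and neither gene overlapped between the siRNAs. CEBPD, a transcription factor, differed by 0.31 ± 0.06 within experiments, but its adjusted p was 0.480 with no pairing and up to 0.0650 without experiment 1 or 3. ANGPTL4, an inhibitor of lipoprotein lipase, was lower by -0.37 ± 0.08 (adjusted p = 0.0233; 0.121 with no pairing, up to 0.0777 without experiment 1, 3, 5 or 11, 0.0650 under median scaling and 0.0793 over its probes).

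Receptor pathways were split, beside 6.85% of all genes higher and 6.06% lower. The MET receptor, which binds hepatocyte growth factor, had 10.48, 10.63 and 10.93 under exon 1 and 10.43, 10.72 and 11.01 under exon 7 (-0.03 ± 0.12, adjusted p = 0.883), while control arrays averaged 9.74. MET was chosen after its values were seen. Of 16 measured genes of the MET receptor and its adaptors 0 were higher and 2 lower, in all 6 fits with an experiment left out as well. GRB2, the adaptor that links receptors to RAS, had 8.87, 9.17 and 9.28 under exon 1 against 9.50, 9.61 and 9.70 under exon 7 (-0.46 ± 0.08, adjusted p = 0.0110; -0.47 on its other probe). RAPGEF1, an exchange factor of RAP1, was lower by -0.61 ± 0.11. Of 26 Notch genes 2 were higher and 0 lower. NOTCH3 differed by 0.34 ± 0.07 within experiments, with 5 exon 1 and 3 exon 7 arrays above background and an adjusted p of 0.230 with no pairing. Of 9 EGF family genes NRG1 was higher and EGFR lower, and of 7 measured FGF genes limma called 0 (1 at an unadjusted p below 0.05). Of 24 Wnt genes 3 were higher and 0 lower, with the secreted DKK3 at 0.55 ± 0.07 (0.50 on its other probe) and the planar polarity protein VANGL2 at 0.56 ± 0.07. LEF1, a transcription factor of the pathway, differed by 0.43 ± 0.09 (2 exon 7 arrays above background; adjusted p = 0.136 with no pairing, up to 0.0665 without experiment 1 or 3). Of 21 genes on a list of YAP and TEAD targets, which also holds factors of the pathway, 1 was higher and 4 lower. The higher one was YAP1 itself (0.41 ± 0.09, adjusted p = 0.0270, up to 0.0869 without experiment 1, 3 or 11). TEAD4 itself was among the lower ones (-0.29 ± 0.08), a call lost with any experiment left out (adjusted p up to 0.127). Of this list 0 were lower under median scaling and without experiment 1 or 5.

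Cell cycle genes were split by member, beside 6.85% of all genes higher and 6.06% lower. Of 17 G1 cyclins, kinases and inhibitors 3 were higher and 2 lower (median 0.04). CCNE1, cyclin E1, had 7.87, 8.09 and 8.61 under exon 1 and 8.79, 9.18 and 9.35 under exon 7 (-0.95 ± 0.11, adjusted p = 0.00292), but its other probe gave -0.03. CDK6, a partner of the D cyclins, had 8.96, 9.24 and 9.58 under exon 1 against 9.70, 9.93 and 10.27 under exon 7 (-0.67 ± 0.07, adjusted p = 0.00228). Both were without overlap. CDK2, the kinase bound by cyclin E, was higher by 0.35 ± 0.07 (0.52 on its other probe), as were the inhibitors CDKN2B (0.47 ± 0.10) and CDKN1C (0.55 ± 0.12; adjusted p = 0.149 with no pairing). These 3 rises were fragile: 0 remained without experiment 3 (adjusted p up to 0.0635, 0.0684 and 0.0650 over the experiments). Of 34 S phase genes 0 were higher and 3 lower, among them the transcription factor E2F2 (-0.57 ± 0.11) and the helicase subunit MCM6 (-0.35 ± 0.07; adjusted p = 0.0853 under median scaling). Of 38 mitotic genes 0 were higher and 3 lower, with a median of -0.06 (1 lower without experiment 1). The lower shares of the S phase and mitotic lists, 8.82% and 7.89%, were near the 6.06% of all genes. AURKA, a spindle kinase, had 11.59, 11.78 and 11.89 under exon 1 and 12.31, 12.43 and 12.52 under exon 7 (-0.65 ± 0.06, adjusted p = 0.00228; -0.68 on its other probe). INCENP, of the chromosomal passenger complex, was lower by -0.44 ± 0.09 (adjusted p = 0.0146; 0.0538 without experiment 1), and BUB3 by -0.27 ± 0.07, a call lost without any experiment other than 9 (up to 0.110), under median scaling (0.177) and over its probes (0.156).

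Some genes of small RNA pathways were lower under the exon 1 siRNA, and most of these calls depended on the fit. Of 15 measured genes of RNA interference and small RNA processing 0 were higher and 4 lower (26.7%, against 6.06% of all genes), with a median of -0.14. AGO1, an Argonaute protein, had 7.37, 7.53 and 7.98 under exon 1 and 8.02, 8.07 and 8.17 under exon 7 (-0.51 ± 0.08, adjusted p = 0.00648). Its exon 1 arrays were all below the exon 7 arrays; the control mean of 7.88 lay between the 2 siRNAs. AGO2, the Argonaute that cleaves its targets, differed by -0.29 and DICER1 by -0.18, and neither passed. TSNAX, of the complex that clears passenger strands, was lower by -0.36 ± 0.06 (-0.32 on its other probe), XPO5, the exporter of microRNA precursors, by -0.37 ± 0.09 and the RNA-editing enzyme ADAR by -0.37 ± 0.09. XPO5 and ADAR lost their calls without experiment 1, 3 or 11 (ADAR also without 9; adjusted p up to 0.0844 and 0.0827), and 2 members were lower without experiment 1, 3 or 11. Under median scaling only 1 of the 4 was lower, AGO1; TSNAX, XPO5 and ADAR did not pass (adjusted p = 0.0692, 0.0959 and 0.0706), and TSNAX did not over its probes (0.219).

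Among chromatin genes 3 of 22 DNA methylation and Polycomb factors were higher and 1, KDM2B, was lower. Over all genes 6.85% were higher and 6.06% lower. JARID2 (0.45 ± 0.07) and AEBP2 (0.44 ± 0.09; adjusted p = 0.0144, and 0.0527 without experiment 1), cofactors of the repressive complex that methylates histone H3, were both higher; JARID2 averaged 8.68 under exon 1 and 8.23 under exon 7, against 7.45 on control arrays. CBX2, a reader of that mark, differed by 0.37 ± 0.08 (adjusted p = 0.0217; 0.0556 with no pairing, up to 0.0729 without experiment 1, 3, 5 or 9). Of 44 genes of RNA polymerase II elongation and Mediator 3 were higher and 4 lower. Beside MED11, the Mediator subunit MED14 was lower (-0.50 ± 0.11, up to 0.0605 without experiment 3, 5 or 9), while MED27 was higher (0.36 ± 0.07, up to 0.0665 without experiment 1 or 3 and 0.0936 over its probes). Of 8 NEDD4-family ligases and their activators 2 were higher and 1, WWP1, was lower. NEDD4L had 8.54, 9.25 and 9.78 under exon 1 and 7.58, 8.20 and 8.58 under exon 7 (1.05 ± 0.20, adjusted p = 0.0131), and NDFIP1, which activates these ligases, differed by 0.56 ± 0.10 (adjusted p = 0.0525 with no pairing). Of 12 katanins and other microtubule genes 2 were higher and 1 lower. CLASP1, which is not a severing enzyme, was 1 of the higher ones, with an adjusted p of 0.231 with no pairing. Its call was lost without any experiment other than 7 (adjusted p up to 0.114). KATNAL1, a katanin-like ATPase, had 7.77, 8.59 and 8.90 under exon 1 and 7.25, 7.54 and 8.17 under exon 7 (0.86 ± 0.11, adjusted p = 0.00415). Control arrays averaged 6.71. SPAST, spastin, was lower by -0.39 ± 0.08 (-0.23 on its other probe; 0.0986 under median scaling, 0.381 over its probes and up to 0.0593 without experiment 1 or 3).

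Inflammatory genes were split as well: of 30 NF-kB and inflammatory genes 3 were higher and 4 lower (median 0.13). The shares were 10% and 13.3%, against 6.85% and 6.06% of all genes. TNFAIP3, the feedback inhibitor A20, had 7.06, 7.41 and 7.83 under exon 1 and 6.02, 6.71 and 7.00 under exon 7 (0.79 ± 0.09, adjusted p = 0.00292), with no overlap. PTGS2, cyclooxygenase 2, had 10.60, 11.06 and 11.72 under exon 1 against 9.09, 10.22 and 11.47 under exon 7 (0.92 ± 0.17, adjusted p = 0.0121), with wide overlap and an adjusted p of 0.106 with no pairing. TNFAIP2 differed by 1.01 ± 0.18 (adjusted p = 0.0106; 4 exon 7 arrays above background). The acute-phase protein SAA1 was lower (-0.83 ± 0.13), as were the mitochondrial dismutase SOD2 (-0.44 ± 0.07; -0.36 on its other probe) and TNIP1, a partner of A20 (-0.37 ± 0.06; adjusted p = 0.0588 under median scaling). IL6 differed by -0.30 ± 0.07 (adjusted p = 0.0314; 0.331 with no pairing, 0.144 under median scaling, up to 0.0984 without experiment 3, 5, 9 or 11) and was chosen after its values were seen. Of 47 interferon response genes 4 were higher and 3 lower, close to the share over all genes. IFI44 (-0.42 ± 0.06) and IFIT2 (-0.42 ± 0.08) were lower and GBP2 (0.74 ± 0.12; above background on 4 exon 1 and 2 exon 7 arrays) higher within experiments, with adjusted p of 0.289, 0.0505 and 0.105 with no pairing, where 0 of the list were called. Of 30 immediate early genes 4 were higher and 4 lower, but 0 were lower under median scaling and without experiment 1 or 3. CSRNP1, a cysteine- and serine-rich nuclear protein, had 9.52, 10.19 and 10.67 under exon 1 and 8.76, 9.13 and 9.51 under exon 7 (0.95 ± 0.12, adjusted p = 0.00348). JUNB, an AP-1 subunit, differed by 0.68 ± 0.12 overall but by 1.14 within the first 12 columns and 0.22 within the last 12 (adjusted p = 0.0901 with no pairing).

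Metabolic and housekeeping lists varied, beside 6.85% of all genes higher and 6.06% lower. Of 60 respiratory chain and ATP synthase genes 1 was higher and 0 lower (median 0.03), and of 49 cytosolic ribosomal proteins 2 were higher and 0 lower (median near 0). Of 28 cholesterol and fatty acid synthesis genes 3 were higher and 0 lower (median 0.15), with the desaturase FADS2 at 0.59 ± 0.10 and mevalonate kinase, MVK, at 0.64 ± 0.13 (adjusted p = 0.0174; up to 0.0569 without experiment 1 or 3). Of 43 autophagy and lysosome genes 3 were higher and 0 lower (median 0.10); ATG5, which builds the autophagosome, differed by 0.84 ± 0.18 (up to 0.0635 without experiment 1, 3 or 11). Of 24 p53 targets 2 were higher and 0 lower, PHLDA3 (0.45 ± 0.07) and the DNA damage protein DDB2 (0.61 ± 0.13); both lost their calls with no pairing (adjusted p = 0.159 and 0.136), DDB2 also without experiment 1 (0.0563). Of 22 unfolded protein and ATF4 genes 2 were higher and 2 lower, of 30 hypoxia and glycolysis genes 3 and 1, of 20 chaperones 1 and 1, of 18 genes of the NRF2 response 1 and 2, and of 21 cilium genes 0 and 3. In all, 41 of the 43 lists held at least 1 called gene.

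Markers of cells other than epithelium were mostly dim. Of 13 fibroblast markers on the array 6 were above background on all exon 1 arrays and 4 on all exon 7 arrays, and COL3A1, PDGFRA, PDGFRB and PDPN on 0 arrays of either. The summed level of the 7 that passed the detection filter ranged from 7491 to 8489 under exon 1 and from 6841 to 8257 under exon 7 (linear normalized intensity). Of 7 tested 2 were higher, THY1, which is also on the basal list, and COL1A2 (0.39 ± 0.08; 1 exon 7 array above background; adjusted p up to 0.0650 without experiment 1, 5 or 11). These levels stand beside the mesenchymal, matrix and basal counts, and their part in those counts was not tested. The immune markers CD3D, CD3E, CD4, CD8A, LYZ, NKG7 and PTPRC and the endothelial markers CDH5, CLDN5, EMCN, ESAM, KDR, TIE1 and VWF were above background on 0 of the 12 arrays. The 4 immune markers that passed the detection filter summed to between 2829.5 and 3794 under exon 1 and between 2864 and 4657 under exon 7. Of these 1 was higher and 1 lower. CSF1R, a receptor of macrophages, was higher by 0.40 ± 0.10 (adjusted p = 0.0373; 0.188 with no pairing, up to 0.109 without experiment 1, 3, 5 or 9), and CD14 was lower by -0.50 ± 0.09 (adjusted p = 0.0122; 0.0651 with no pairing).

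**Figure D5:**
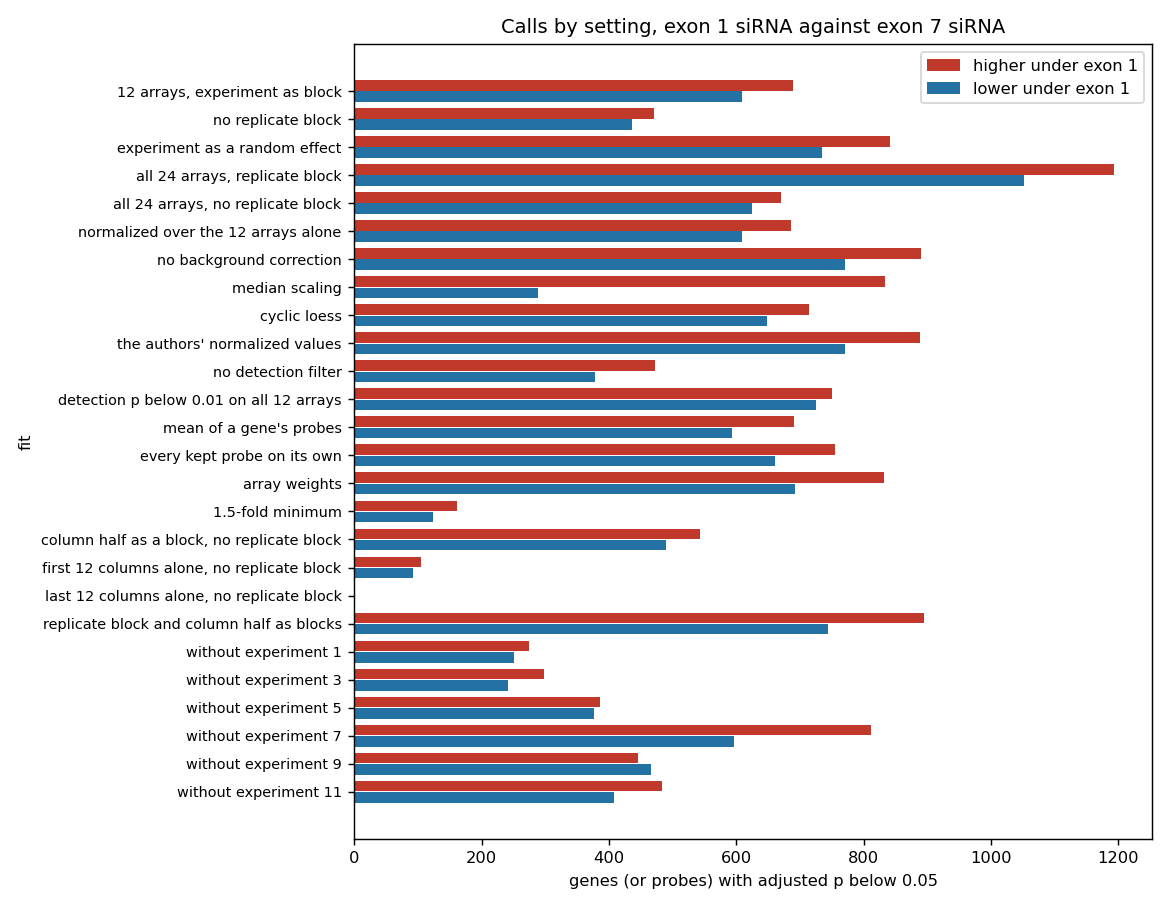
Number of genes higher (red) and lower (blue) under exon 1 than under exon 7 at an adjusted p below 0.05, for the paired fit on 12 arrays (top) and for each other setting (for the fit of every kept probe, numbers of probes). The counts fall to 275 and 251 without experiment 1 and to 1 and 0 within the last 12 columns, and reach 1194 and 1052 with all 24 arrays and the experiment as a block.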

How the data were processed

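Illumina bead arrays measured RNA in 24 cultures of HB2 cells; the 12 arrays of the exon 1 and exon 7 siRNAs were compared. The authors deposited log2 bead intensities that were not normalized between arrays, per the file name, and a second table of log2 values with near-equal medians on all arrays (7.56). How either table was made beyond this is not given in the labels or file headers. As neither control probes nor detection p-values entered, 437 olfactory receptor probes, genes not expected in epithelium, stood in for negative controls in limma 3.58.1 (R 4.3.3): normexp background correction with an offset of 16, then quantile normalization over the 24 arrays. A probe counted as above background on an array when the share of those probes that were brighter was below 0.05, and was kept when this held on at least 6 of the 12 arrays. Of 47231 probes, 47228 had all values, 30112 had 1 gene symbol, 8 several and 17108 none; symbols came from the platform annotation and 30073 were updated by gene number. The brightest of a gene's kept probes stood for it, which gave 10057 genes from 13135 probes.

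Each gene was fitted with limma (lmFit, eBayes) on 12 arrays with siRNA and experiment as terms, and p-values were adjusted over all genes by Benjamini-Hochberg at 0.05. All adjusted p in the text come from limma, and "no pairing" means the fit without the experiment term. Differences are exon 1 minus exon 7 ± standard error on the log2 scale. The lowest detectable level after normalization was 6.28 to 6.51 (log2), and a gene above background on no array of an siRNA (SPOCD1) has its fold change given as a bound. Pairing followed the experiment numbers in the titles. Deviations of the paired arrays from their siRNA means correlated at 0.25, 0.53, 0.15, 0.09, 0.31 and 0.11 in experiments 1, 3, 5, 7, 9 and 11. The exon 1 arrays of experiments 5 and 7 correlated better with an exon 7 array of another experiment (0.169 and 0.167). The exon 7 arrays of experiments 5, 7 and 11 also correlated best with another experiment. The labels call the arrays of an siRNA biological replicates but do not say how cultures were separated. The p-values of the paired fit therefore measure the spread of the within-experiment differences of these samples. With no pairing they measure the spread between the arrays of an siRNA. The genes named are the 15 largest rises and 15 largest falls among called genes with 1 sign in all experiments, the locus, up to 6 called members of each of 43 gene lists, and the cell markers. Members and lists were chosen with earlier results of these data known. The number of arrays limits the precision. The fit was tested on simulated data.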

Additional observations from a re-analysis of the deposited data

Results flagged for a closer look

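In the named genes, 292 sets of 6 arrays (1 gene, 1 siRNA) were checked for a single array far from the other 5, and 15 had one; chance gives about 1 in 20 sets. Experiment 3 held 6 of the 15.

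Among exon 1 arrays, IFI44 stood at 9.54 and DDB2 at 8.47 in experiment 3, above the others. RSU1 at 8.21 in experiment 5 was below its others and PKP2 at 8.23 above, while RAPGEF1 at 8.48 in experiment 11 was below.

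Among exon 7 arrays, TAGLN at 8.31, BAMBI at 7.64 and JUNB at 8.21 in experiment 9 were above the other 5 arrays, and IRX3 at 6.54 in the same experiment was below them. In experiment 3 MYLK at 7.40, ADAR at 12.32, CGN at 11.45 and PHLDA3 at 9.02 were above. ATOSB at 7.25 in experiment 5 was above its others, and INCENP at 9.17 in experiment 7 was below.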

How the results depend on the processing

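Of the 175 named genes that passed, 118 kept the call and 57 lost it with no replicate block, where 470 genes were higher and 436 lower, and none of the 175 changed sign under any alternative run. Among named genes that did not pass, differences near 0, such as those of MET, KRT5 and KRT18, did. The numbers of genes higher and lower were 1194 and 1052 with all 24 arrays and the replicate block, and 161 and 124 at a minimum of 1.5-fold. Median scaling gave 288 lower, and no detection filter 378 lower. The first 12 columns alone gave 105 and 93 and the last 12 columns alone 1 and 0, both with no replicate block and with fewer arrays. The planned fit of each column set with the block could not be run, since each set holds both siRNAs of only 1 experiment. With 1 experiment left out, counts ranged from 275 to 812 higher and from 242 to 596 lower. The column sets may or may not be chips or hybridization batches, and their part in the results was not tested. Except for the settings whose construction removes arrays or genes, the cause of each change was not tested. Paired arrays of experiment 7 correlated least (0.09), and with the column set as a second block 1284 of the 1298 calls held. Dim probes, such as those of SPOCD1, MMP9, PRUNE2 and BAMBI under exon 7, have levels limited by the background. Of the genes called higher, 13 were above background on 6 exon 1 arrays and on 1 or fewer exon 7 arrays. Their exon 1 arrays alone met the filter.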
